A study of Homo sapiens with 24 samples.

Results

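Respiratory complex I is the largest enzyme of the mitochondrial electron transport chain, and the nuclear genes for its subunits are described here in 2 human pancreatic cancer cell lines. The genes were taken by symbol: NDUFA, NDUFB, NDUFC, NDUFS or NDUFV followed by digits only, plus NDUFAB1. This gave 38 of the 25168 genes in each count table, and all 38 had enough reads to be tested in both lines. No gene of the mitochondrial chromosome was among the rows, so the 7 complex I subunits encoded there were not analysed here. Symbols alone chose the members, with no measured value.

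BXPC3 and PANC1 are established lines from pancreatic ductal adenocarcinoma. Each was grown in low-glucose medium with serum and held for 24 h with vehicle, with SR4 at 5 uM, with lonidamine at 300 uM, or with both compounds, with 3 libraries in each of the 8 groups. The labels give no separate doses for the combination. SR4 is known as a mitochondrial uncoupler, and lonidamine as an inhibitor of the mitochondrial pyruvate carrier, of monocarboxylate export and of complex II. Libraries were made from total RNA with an mRNA kit. Whether the 3 libraries of a group came from separate cultures is not stated, and p-values then reflect the spread among libraries alone, which may be technical.

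Complex I takes electrons from NADH, passes them through a flavin and a chain of iron-sulfur clusters to ubiquinone, and pumps protons across the inner membrane. Its matrix arm holds the N module, which oxidises NADH, and the Q module, which reduces ubiquinone. Its membrane arm holds a proximal and a distal part, where the mitochondrially encoded pumping subunits are wrapped by small accessory subunits from the nucleus. The 7 nuclear core subunits, among them NDUFV1, NDUFV2, NDUFS1 and NDUFS3, hold the sites of electron transfer and all lie in the matrix arm. The others are accessory subunits, which stabilise the enzyme. NDUFAB1 is the mitochondrial acyl carrier protein, bound at both arms, and NDUFA4 has been reassigned to complex IV.

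Library totals ran from 8873041 to 11822495 counts. Libraries of a group differed by more than sampling noise, with a chi-square per degree of freedom of 1.30 to 3.71. SMAD4, which BXPC3 lacks, had no count in any BXPC3 library and 49.2 to 52.8 CPM, which are counts scaled to library size, in the PANC1 vehicle libraries. All 5 epithelial markers were detected in each line, with sums of 4227 to 4582 CPM (BXPC3) and 3637 to 3802 (PANC1) with vehicle. Treated sums ran from 2612 to 3467 CPM in BXPC3 and from 841 to 2096 in PANC1. The 3 mesenchymal markers (VIM, CDH2, ZEB1) summed to 75.9 to 83.8 CPM in BXPC3 vehicle and 4384 to 4480 in PANC1 vehicle. Their treated sums ran from 61.9 to 141 CPM in BXPC3 and from 3004 to 5171 in PANC1. The 4 immune markers together reached at most 4.66 CPM. The 3 endothelial markers summed to 9.13 to 10.8 CPM in BXPC3 vehicle and at most 1.73 in any other group, and the 4 fibroblast markers to 81.6 to 86.4 in PANC1 vehicle and at most 34.0 elsewhere. The part of these markers in the results was not tested. In every treatment of both lines all 8 integrated stress response genes rose and all 6 proliferation genes fell, and their part in the results below was not tested. In bulk RNA, fewer cells of a kind and less RNA per cell cannot be told apart, and CPM is a share of each library and not an amount per cell.

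Promoter sequence was set beside the responses for 4 genes, printed here because they differ in how often they fell under treatment. NDUFB4, NDUFB6 and NDUFB10, accessory subunits of the distal membrane arm, fell under every treatment in both lines. NDUFS4, an accessory subunit of the N module, fell under none. The choice was made after the values were seen, among members whose window lay mostly outside annotated exons. Each sequence is the 150 bases before the gene's RefSeq start (GRCh38.p14), 5′ to 3′ on the gene's strand, with capitals for a match to a searched motif.
NDUFB4 (chr3:120596186-120596335, plus strand): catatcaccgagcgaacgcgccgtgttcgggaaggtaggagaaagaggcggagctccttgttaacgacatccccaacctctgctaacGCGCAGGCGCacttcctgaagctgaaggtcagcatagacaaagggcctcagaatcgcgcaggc
NDUFB6 (chr9:32573160-32573309, minus strand): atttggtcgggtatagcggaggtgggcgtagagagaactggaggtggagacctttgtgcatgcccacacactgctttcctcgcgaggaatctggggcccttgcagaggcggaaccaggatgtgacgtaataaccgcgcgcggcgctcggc
NDUFB10 (chr16:1959388-1959537, plus strand): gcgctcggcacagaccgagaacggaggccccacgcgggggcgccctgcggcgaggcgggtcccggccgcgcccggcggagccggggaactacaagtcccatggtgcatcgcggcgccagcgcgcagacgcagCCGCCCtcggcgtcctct
NDUFS4 (chr5:53560489-53560638, plus strand): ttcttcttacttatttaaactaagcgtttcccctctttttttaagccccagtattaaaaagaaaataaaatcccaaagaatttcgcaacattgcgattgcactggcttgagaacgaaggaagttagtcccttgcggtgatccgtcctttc

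The capitals mark an NRF1 motif in NDUFB4 and a GC box in NDUFB10, and none of the searched letters occurred in the printed windows of NDUFB6 and NDUFS4. Of the 38 members, 32 had a promoter in the RefSeq table used. Motifs were read on both strands, first in the 250 bases before the start of the first listed promoter. NRF1 (GCGC, any base, then TGCGC), a regulator of nuclear genes for respiration, matched in 15.6% of the members and 7.14% of all 16610 genes with a promoter. The ETS motif (CCGGAAG) matched in 15.6% and 11.1%, the GC box (GGGCGG) in 62.5% and 53.2%, the CCAAT box (CCAAT) in 25% and 34.2%, and the element of ATF4 with CHOP (TGATGNAA) in 3.12% and 2.48%. The YY1 motif (AAGATGGC) matched in 0 of 32 members and in 1.37% of genes.

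A second search, chosen after the first was seen, took every listed promoter and all 300 bases, including 50 after the start. There the YY1 share was 21.9% of members and 4.47% of genes, and NRF1 18.8% and 9.05%. The ETS share was 15.6% and 15.5%, the GC box 65.6% and 61.1%, the CCAAT box 25% and 41.7%, and TGATGNAA 6.25% and 3.8%. The YY1 count was thus 0 in the first search and 7 in the second, NDUFS4 among them. A match is a description of letters and not a bound site.

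With vehicle, levels per kilobase of gene length (CPM per kb) spanned a wide range among the members. NDUFS5, a small subunit of the proximal membrane arm, had the highest level, at 177 ± 3.4 CPM per kb (SD, n = 3) in BXPC3 and 223 ± 9.6 in PANC1. NDUFA1, an accessory subunit of the membrane arm, followed at 101 ± 4.1 and 153 ± 2.9. The third place differed, with NDUFA8 at 72.3 ± 2.0 in BXPC3 and NDUFB10 at 97.5 ± 5.7 in PANC1. The lowest levels in both lines were those of NDUFA11, NDUFC1 and NDUFA13: NDUFA11 had 0.296 ± 0.056 CPM per kb in BXPC3 and 0.414 ± 0.053 in PANC1. NDUFA13 and NDUFC1 did not differ beyond their spread, at 1.05 ± 0.29 and 1.09 ± 0.33 CPM per kb in BXPC3. The labels and headers name neither the source of the gene lengths nor the handling of reads shared between genes. In GENCODE 29, 36.6% of the coding bases of NDUFA11, 51.5% of NDUFA13 and 85.1% of NDUFB8 also lie in exons of another gene, which makes their levels uncertain. The same holds for NDUFA7, NDUFA9, NDUFB2, NDUFC2, NDUFS7 and NDUFV2, with 45.5% to 100% shared.

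**Figure D1:**
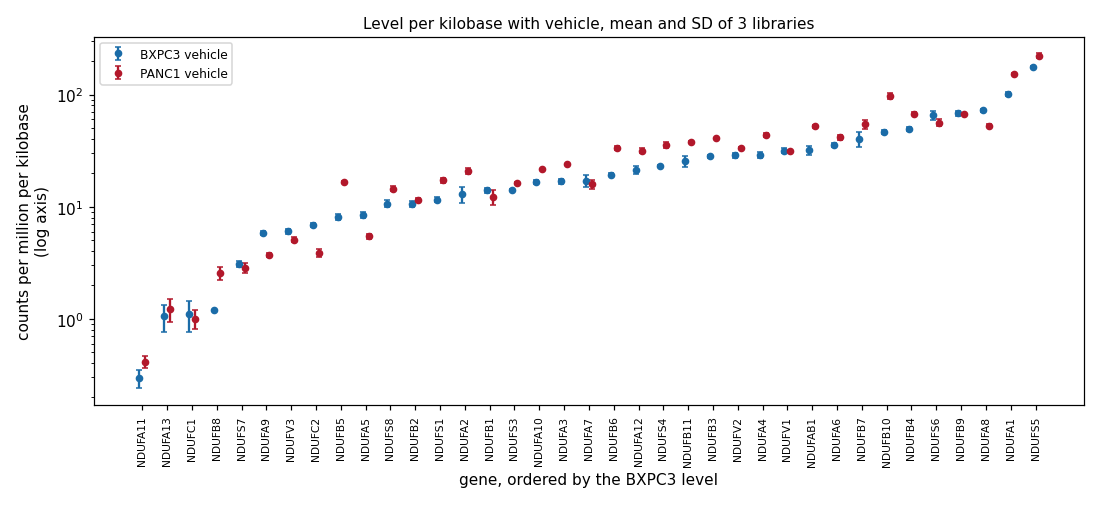
Mean level of 37 of the genes with vehicle in CPM per kb (log axis), with the SD of 3 libraries, for BXPC3 (blue) and PANC1 (red). CPM were scaled within each line. NDUFS5 is highest in both lines and NDUFA11 lowest.

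The lines differed at rest in most of these genes. Of the 38 members, 21 were higher in PANC1 and 10 were higher in BXPC3 (adjusted p under 0.05, edgeR's quasi-likelihood test, Benjamini-Hochberg adjustment over all genes). The background was high too, as 41.3% of the 13930 genes tested were higher in PANC1 and 43% lower. The members' median difference was 0.30 on the log2 scale, and that of all genes was −0.01. The summed level of the 38 genes was 2043 ± 57.7 CPM in BXPC3 and 2534 ± 24.2 in PANC1. These sums were scaled within each line and not jointly, so their difference is only approximate.

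The largest differences between the untreated lines were in accessory subunits. NDUFB10 had 51.9, 48.1 and 48.2 CPM in the 3 BXPC3 libraries and 103.5, 98.3 and 110.5 in PANC1, a difference of 0.97 (SE 0.06, edgeR adjusted p = 9.03e-17). NDUFB8, another distal subunit, had about 3 CPM in each BXPC3 library and 6.05 to 7.62 in PANC1 (1.01, SE 0.20, edgeR adjusted p = 2.1e-05). In CPM scaled within each line, both genes separated the lines without overlap. In the other direction stood NDUFC2, a proximal subunit, with 16.4 to 17.9 CPM in BXPC3 and 8.97 to 10.4 in PANC1 (−0.92, SE 0.11, edgeR adjusted p = 1.88e-09). NDUFA9, which lies near the quinone site, was also lower in PANC1 (−0.76, SE 0.06, edgeR adjusted p = 6.46e-14).

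In BXPC3 the complex I genes fell under every treatment, and the combination lowered them furthest. SR4 lowered 31 of 38 and raised none, where 33.9% of all 12920 genes fell and 33.4% rose. Lonidamine lowered 28 and raised none, against 32.7% and 34.8% of all genes. The combination lowered 33 and raised 1, against 39.5% and 39.7%. The median log2 change was −0.40 with SR4, −0.33 with lonidamine and −0.71 with the combination, while the median over all genes lay between 0.00 and 0.03. Summed levels were 1524 ± 13.6, 1641 ± 16.8 and 1262 ± 9.8 CPM (SD, n = 3), and no treated library reached the lowest vehicle library at 2008 CPM.

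PANC1 showed falls of smaller median size and more exceptions. SR4 lowered 27 of 38 and raised 2, where 36.7% of the 12514 genes fell and 35% rose. Lonidamine lowered 20 and raised 1, against 34.2% and 35%. The combination lowered 26 and raised 5, against 40.9% and 40.1%. The medians were −0.26, −0.22 and −0.37, with all genes between −0.02 and 0.01. Summed levels were 2134 ± 73.1, 2153 ± 25.9 and 2019 ± 26.0 CPM, and no treated library reached the lowest vehicle library at 2509 CPM.

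**Figure D2:**
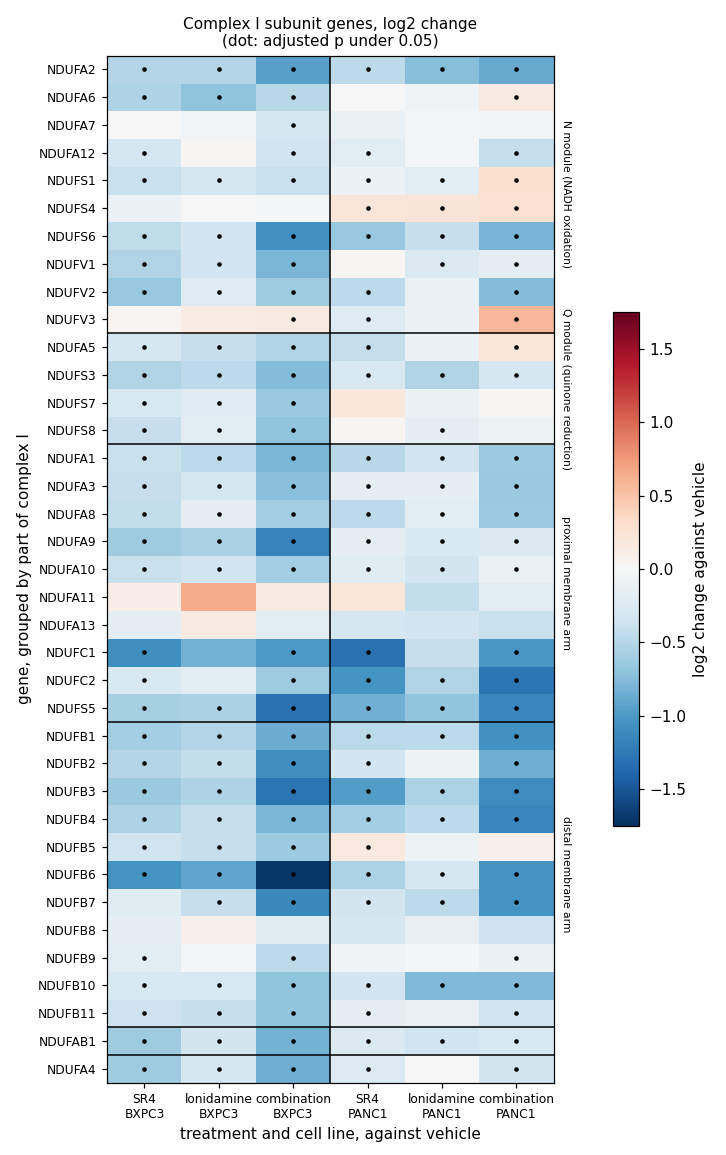
Log2 change of 37 of the genes (rows, grouped by part of complex I) against vehicle for 3 treatments in BXPC3 (left) and PANC1 (right); blue is lower, red is higher, and a dot marks an adjusted p under 0.05. The only dotted red cell in BXPC3 is NDUFV3 with the combination, while PANC1 has dotted red cells mainly in the N module.

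A set of 15 of the 38 members fell in all 6 comparisons with vehicle, as did 12.5% of the 11538 genes tested in both lines. Of these, 6 were listed under the proximal membrane arm (NDUFA1, NDUFA3, NDUFA8, NDUFA9, NDUFA10, NDUFS5), though NDUFA9 lies near the quinone site. A further 5 belong to the distal arm (NDUFB1, NDUFB3, NDUFB4, NDUFB6, NDUFB10). The rest were NDUFA2 and NDUFS6 of the N module, NDUFS3 of the Q module, and NDUFAB1. Some of these calls were not stable. The SR4 call of NDUFA9 in PANC1 was lost in 7 of 18 alternative analyses. The lonidamine calls of NDUFA8 were lost in 3 of 18 in BXPC3 and 2 of 18 in PANC1. The calls of NDUFA3, NDUFA10 and NDUFB1 were not followed. The comparisons within a line share their vehicle libraries, so the 6 are not independent. Another 3 members, NDUFA11, NDUFA13 and NDUFB8, passed the test in none of the 6. The share of all genes that passed in none was not counted, so this number has no background. They had 49, 117 and 102 counts over the 3 vehicle libraries of BXPC3 and 56, 111 and 180 in PANC1, and the part of depth in this was not tested.

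NDUFB6, a small subunit of the distal membrane arm, had the largest fall in BXPC3 under the combination. It had 26.5, 26.1 and 27.6 CPM with vehicle, 15.4, 10.8 and 12.7 with SR4, 15.6, 15 and 11.5 with lonidamine, and 8.02, 8.47 and 8.08 with the combination. The groups did not overlap except for SR4 and lonidamine with each other. The log2 changes were −1.04 (SE 0.11), −0.93 (SE 0.11) and −1.71 (SE 0.12), with edgeR adjusted p of 4.05e-09, 2.88e-08 and 1.23e-12. In PANC1 the same gene fell by 0.55, 0.29 and 1.03 on the log2 scale, from 44.6 to 47.8 CPM with vehicle to 21.4 to 23.5 with the combination.

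NDUFS5 combined the highest level per kilobase with one of the larger falls. In BXPC3 it had 97.8, 97.8 and 94.5 CPM with vehicle and 40.8, 38.1 and 38.8 with the combination (−1.30, SE 0.06, edgeR adjusted p = 3.28e-17). In PANC1 it had 126.7, 116.2 and 121.9 CPM with vehicle and 55.6, 56.4 and 53.6 with the combination (−1.14, SE 0.06, edgeR adjusted p = 1.51e-16). All libraries of the single treatments lay between those of vehicle and combination in both lines. NDUFB3, a distal subunit, behaved alike in size, with −1.28 (SE 0.09) in BXPC3 and −1.11 (SE 0.07) in PANC1.

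NDUFC2 fell most among the PANC1 genes under the combination, from 9.76, 8.97 and 10.4 CPM with vehicle to 3.94, 4.01 and 4.20. The log2 change was −1.26 (SE 0.16, edgeR adjusted p = 2.83e-08), and with SR4 alone it was −1.05 (SE 0.16). NDUFB4, a distal subunit, had 126.4, 124.4 and 131.1 CPM with vehicle and 57.8, 58.7 and 56.6 with the combination (−1.14, SE 0.05, edgeR adjusted p = 1.17e-17). For both genes the vehicle and combination libraries did not overlap, while an SR4 library of NDUFC2, at 4.03 CPM, lay within the combination range. With lonidamine in PANC1 the largest falls were those of NDUFB10 (−0.78, SE 0.06), NDUFA2 of the N module (−0.74, SE 0.10) and NDUFS5 (−0.70, SE 0.05). NDUFC1 carries the largest SR4 estimates, −1.07 (SE 0.44) in BXPC3 and −1.30 (SE 0.39) in PANC1. It rests on 58 and 43 counts over the 3 vehicle libraries, and in BXPC3 its SR4 call was lost in 6 of 18 alternative analyses.

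**Figure D3:**
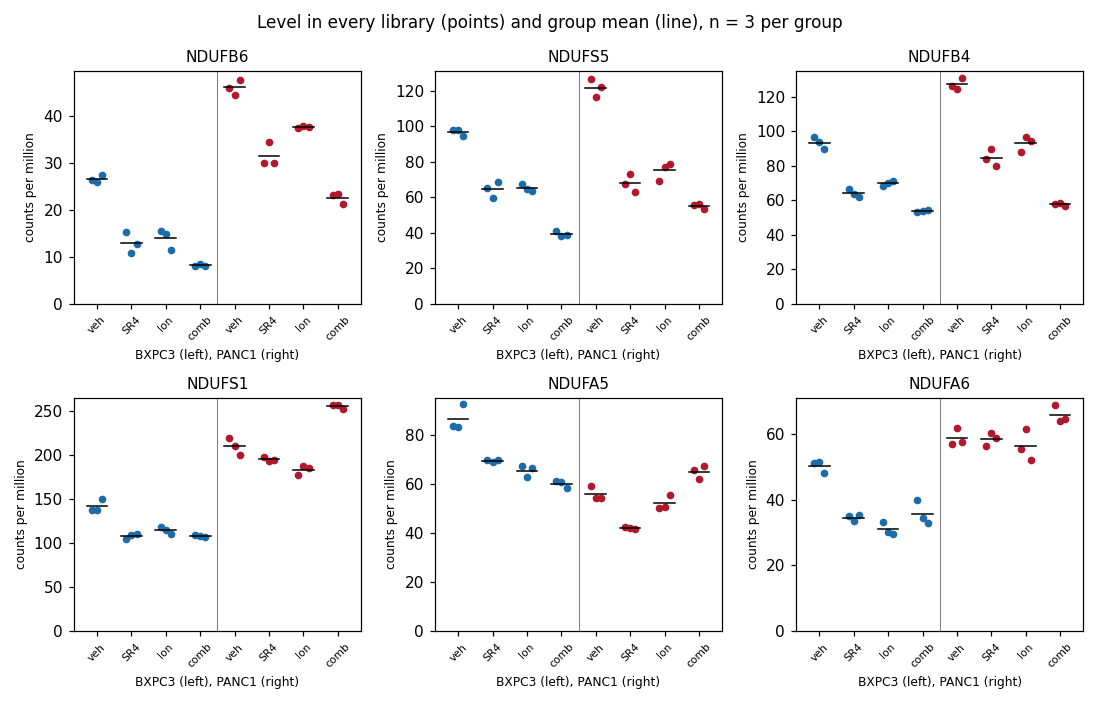
Level in CPM of 6 genes in each library (points, 3 per group) with the group mean (line), BXPC3 left and PANC1 right of the divider. The upper genes fall with every treatment in both lines, while NDUFS1, NDUFA5 and NDUFA6 with the combination lie below vehicle in BXPC3 and above it in PANC1.

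The core subunits fell as a group in BXPC3, and in PANC1 they split. All 7 fell in BXPC3 with each treatment, with medians of −0.40 with SR4, −0.30 with lonidamine and −0.71 with the combination. In PANC1, 4 fell with SR4, 4 with lonidamine and 4 with the combination, and 1 rose with the combination. NDUFV1 binds the flavin that accepts electrons from NADH. With vehicle, SR4, lonidamine and combination it averaged 131.4, 91.5, 104.5 and 75.2 CPM in BXPC3, and 129.5, 132.6, 108.9 and 116.5 in PANC1. NDUFV2, an iron-sulfur subunit beside NDUFV1, fell with SR4 in both lines (−0.67, SE 0.06, and −0.46, SE 0.05). NDUFS3, a core subunit of the Q module, fell by 0.76 in BXPC3 and 0.30 in PANC1 under the combination on the log2 scale. NDUFS8, which holds iron-sulfur clusters near the quinone site, fell by 0.71 in BXPC3 and changed by −0.09 in PANC1, which did not pass. NDUFS7 in PANC1 passed in no treatment (0.19, −0.10 and 0.02 on the log2 scale), and its lonidamine call in BXPC3 was lost in 9 of 18 alternatives.

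NDUFS1 is the largest core subunit and carries iron-sulfur clusters. In BXPC3 it had 137.8, 137.3 and 150.3 CPM with vehicle and 109.5, 108.0 and 107.3 with the combination (−0.39, SE 0.05, edgeR adjusted p = 2.03e-08). In PANC1 it had 220.2, 211.0 and 200.5 with vehicle, 198.2, 193.3 and 194.6 with SR4, 178.2, 187.3 and 185.8 with lonidamine, and 257.6, 256.7 and 252.9 with the combination. The single compounds each lowered it in PANC1 (−0.11, SE 0.04, and −0.20, SE 0.04), the SR4 call being lost in 2 of 18 alternatives, and the combination raised it (0.28, SE 0.04, edgeR adjusted p = 2.02e-07). The combination libraries lay above all others of that line.

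NDUFA5, a Q module subunit, and NDUFA6, an accessory subunit of the LYR protein family at the N and Q modules' border, moved in the same pair of directions. NDUFA5 had 83.5, 82.9 and 92.3 CPM with vehicle and 61.2, 60.6 and 58.3 with the combination in BXPC3 (−0.52, SE 0.05). In PANC1 it had 59.0, 54.3 and 54.3 with vehicle, 42.5, 42.2 and 41.4 with SR4 and 65.7, 62.1 and 67.1 with the combination (0.22, SE 0.06, edgeR adjusted p = 0.0011). SR4 alone thus gave its lowest PANC1 values and the combination its highest. NDUFA6 in BXPC3 fell most with lonidamine (−0.70, SE 0.07), and in PANC1 it changed by 0.16 with the combination (SE 0.06, edgeR adjusted p = 0.0163), a call lost in 3 of 18 alternatives.

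NDUFS4 and NDUFV3 of the N module and NDUFB5 of the distal arm were the other members that rose in any treatment. NDUFS4 rose in PANC1 by 0.21 with SR4, 0.23 with lonidamine and 0.26 with the combination (SE 0.06 to 0.07), from 38.3 to 43.4 CPM with vehicle to 48.6 to 50.4 with the combination. In BXPC3 its changes of −0.10, 0.00 and −0.04 did not pass. NDUFV3 in PANC1 had 31.8, 30.7 and 33.8 CPM with vehicle and 48.0, 47.6 and 48.6 with the combination (0.58, SE 0.07, edgeR adjusted p = 1.09e-08), without overlap. With SR4 alone it fell there, to 25.4, 29.2 and 27.5 CPM (−0.23, SE 0.08, edgeR adjusted p = 0.008). In BXPC3 its rise of 0.16 (SE 0.07, edgeR adjusted p = 0.0328) was lost in 7 of 18 alternatives. NDUFB5 rose with SR4 in PANC1 (0.17, SE 0.05) and fell with SR4 in BXPC3 (−0.34, SE 0.07).

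By position in the enzyme, the PANC1 combination response was the most uneven. The 15 matrix arm genes had a median of −0.09 there, with 5 up and 7 down. The 21 membrane arm genes had −0.64, with none up and 17 down. Of all genes 40.1% rose and 40.9% fell in that comparison. Within the arms the medians were −0.10 for the N module, −0.09 for the Q module, −0.64 for the proximal part and −0.86 for the distal part. In BXPC3 the combination gave −0.63 for the matrix arm and −0.74 for the membrane arm. These counts describe the genes and no test compares the arms. NDUFA9, which lies near the quinone site, was counted with the membrane arm. Gene length moves with arm and its part was not tested: the median length was 3.64 kb in the matrix arm and 1.94 kb in the membrane arm. Over the 38 members the combination change in PANC1 had a Spearman correlation of 0.53 with length, and over all genes 0.07, given as a description of genes that share libraries.

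**Figure D4:**
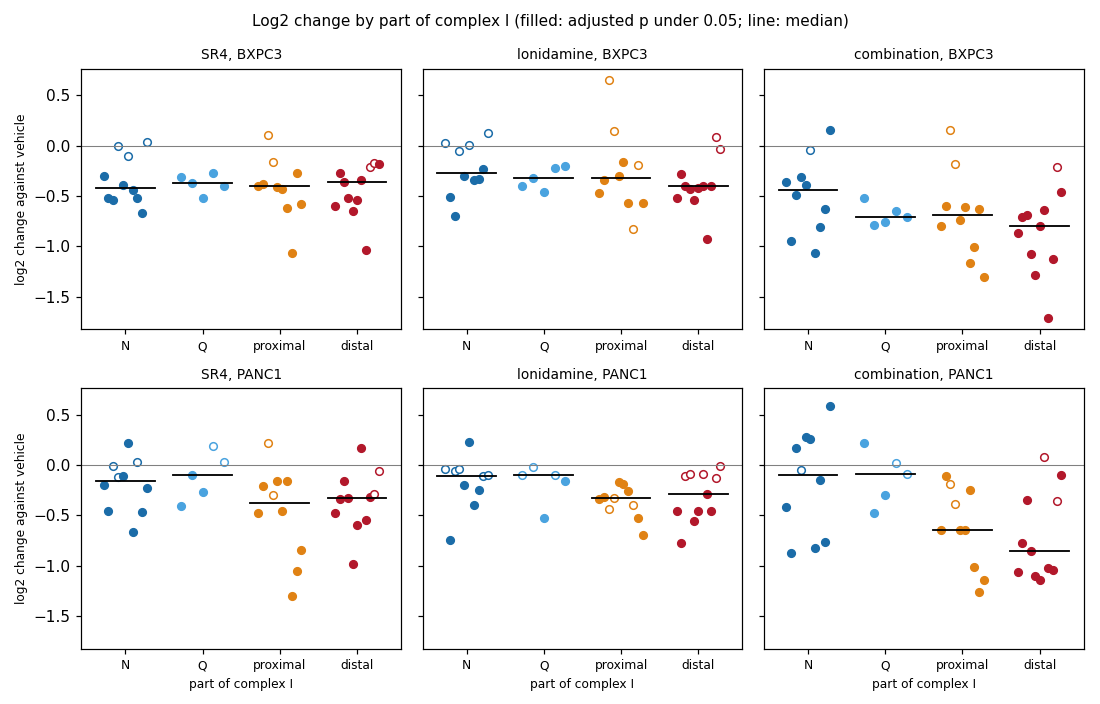
Log2 change against vehicle of each gene by part of complex I (N and Q, matrix arm; proximal and distal, membrane arm), for 3 treatments in BXPC3 (top) and PANC1 (bottom); filled points have an adjusted p under 0.05 and lines are medians. With the combination in PANC1 the medians are −0.10 and −0.09 in the matrix arm and −0.64 and −0.86 in the membrane arm.

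NDUFAB1 and NDUFA4 have particular places in the complex. NDUFAB1 changed by −0.62, −0.32 and −0.82 in BXPC3 with SR4, lonidamine and the combination, and by −0.25, −0.35 and −0.28 in PANC1, all 6 passing the test. NDUFA4 changed by −0.62, −0.29 and −0.86 in BXPC3 and by −0.23 and −0.32 in PANC1 with SR4 and the combination. With lonidamine in PANC1 NDUFA4 had 138.0, 138.1 and 140.1 CPM against 143.5, 142.8 and 132.2 with vehicle (−0.01, SE 0.05, edgeR adjusted p = 0.897). As NDUFA4 is 1 gene, leaving it out can change a count of members by at most 1, whatever the data. The members' median with SR4 in BXPC3 was −0.40 with it and without it.

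Adding the second compound lowered most of these genes further in BXPC3. Against SR4 alone the combination lowered 27 of 38 and raised none, where 30.5% of all genes fell and 30.3% rose. With the total count as library size, an alternative added after the data were seen, 39.45% of the calls over all genes in that comparison were rises. Against lonidamine alone it lowered 28 and raised 1 (30.7% and 30.1% of all genes). In PANC1 the combination lowered 17 and raised 4 against SR4 (33.4% and 33.2%), and lowered 17 and raised 7 against lonidamine (37.5% and 37.1%). NDUFB7, a distal subunit, had the largest fall from SR4 to combination in both lines, −0.91 (SE 0.14) in BXPC3 and −0.72 (SE 0.11) in PANC1. NDUFV3 had the largest rise in PANC1 in that comparison (0.81, SE 0.07).

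SR4 and lonidamine were also set directly against each other at their single doses. In BXPC3, 8 of 38 were lower with SR4 and none higher, where 23.7% of all genes were lower and 23% higher. With the total count as library size, 3 members were higher and the share of rises among all calls was 62.82%. In PANC1, 14 were lower and 8 higher (32.9% and 33.4% of all genes). NDUFV2 was lower with SR4 in both lines (−0.44, SE 0.06, and −0.35, SE 0.05). NDUFB10 in PANC1 was higher with SR4, at 81.2, 89.6 and 76.1 CPM against 59.8, 62.3 and 60.4 with lonidamine (0.44, SE 0.06, edgeR adjusted p = 7.32e-07).

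The interaction asks whether the combination differs from the sum of the single changes on the log2 scale. In BXPC3, 5 members lay above the sum and 3 below, with 23.7% and 25.5% of all genes, and in PANC1 12 and 4, with 30.8% and 30% of all genes. NDUFA6 had the largest called interaction in BXPC3 (0.75, SE 0.10, edgeR adjusted p = 1.06e-06): SR4 gave −0.54, lonidamine −0.70 and the combination −0.49. NDUFS1 followed at 0.31 (SE 0.07). The most negative among called members were NDUFB7 at −0.51 (SE 0.18), lost in 5 of 18 alternatives, and NDUFS6, a zinc-binding N module subunit, at −0.28 (SE 0.09). With a replicate block, 2 members lay above the sum. In PANC1 NDUFV3 (0.92, SE 0.10, edgeR adjusted p = 9.38e-09), NDUFA5 (0.73, SE 0.08) and NDUFS1 (0.58, SE 0.06) lay furthest above the sum. NDUFB2, a distal subunit, lay furthest below it (−0.44, SE 0.10).

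Differences between the lines in the response itself were tested as the PANC1 change minus the BXPC3 change in one fit of all 24 libraries. With SR4, 16 members fell less or rose in PANC1 relative to BXPC3 and 5 went the other way, where 26.2% and 24.9% of all genes did so. With lonidamine the counts were 11 and 1 (23.5% and 18.2%), and with the combination 19 and 2 (31.7% and 30.2%). All 7 core subunits were among the 16 with SR4, and 6 of the 7 among the 19 with the combination. With SR4 the difference for NDUFV2 was lost in 10 of 30 alternatives and that for NDUFS3 in 3 of 30, the DESeq2 test among both. NDUFA9 had the largest difference with the combination (0.87, SE 0.10, edgeR adjusted p = 3.51e-10), at 26.4, 29 and 29.4 CPM against a vehicle mean of 63.4 in BXPC3 and 34.6, 33.0 and 33.7 against 40.3 in PANC1. NDUFV1 had the largest with SR4 (0.55, SE 0.07, edgeR adjusted p = 8.19e-09). Differences in the other direction were led by NDUFC2 with SR4 (−0.79, SE 0.18) and NDUFB10 with lonidamine (−0.46, SE 0.10).

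With both compounds, 26 of 38 members fell in both lines, 1 rose in both and 3 passed in opposite directions, namely NDUFA5, NDUFA6 and NDUFS1. Of the 11538 genes tested in both lines, 24.7% fell in both, 26% rose in both and 16.3% were opposite. With SR4, 25 members fell in both, none rose in both and NDUFB5 alone was opposite, against 20.8%, 19.8% and 11.5% of all genes. With lonidamine 19 fell in both, none rose in both and none was opposite, against 21.3%, 23.1% and 7.64%. Across the 38 members the changes in BXPC3 and PANC1 had a Pearson correlation of 0.54 with SR4, 0.27 with lonidamine and 0.67 with the combination. Over all genes tested in both lines it was 0.50, 0.60 and 0.51. These are descriptions over genes that share libraries, and leaving out single libraries moved the lonidamine value between 0.049 and 0.384.

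**Figure D5:**
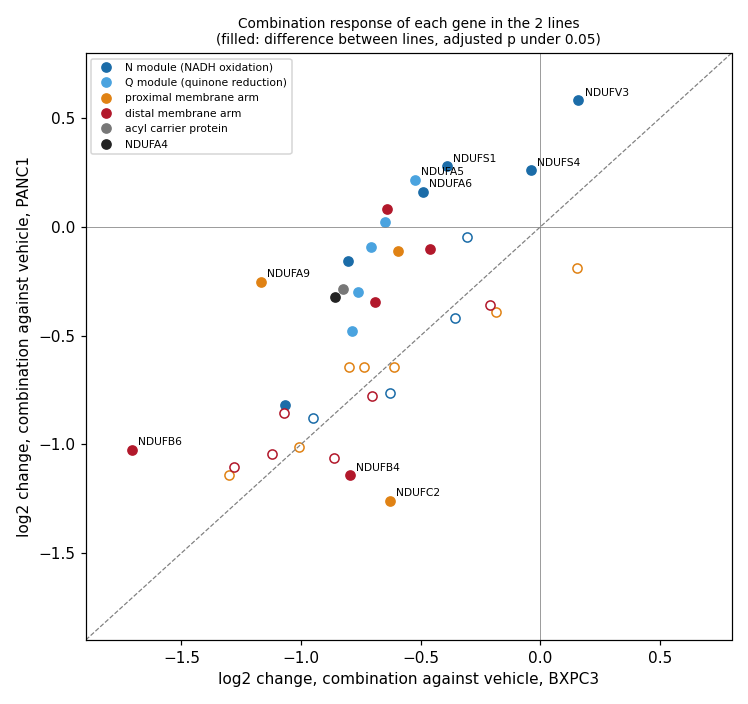
Log2 change of each gene with the combination in BXPC3 (horizontal) and PANC1 (vertical), coloured by part of complex I; filled points differ between the lines at adjusted p under 0.05 and the dashed line marks equal change. Of the filled points, 19 lie above the line and 2, NDUFC2 and NDUFB4, below it.

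The other respiratory complexes were counted the same way, with the shares of all genes given above. In BXPC3 the combination lowered all 4 genes of complex II, all 9 of complex III, all 10 of complex IV and 14 of 15 of ATP synthase, and in PANC1 3, 8, 9 and 15, with 1 rise, in complex III. SR4 lowered 4, 9, 10 and 13 in BXPC3, and in PANC1 3, 7, 5 and 14, with 1 rise each in complex IV and ATP synthase. Lonidamine lowered 2, 7, 9 and 15 in BXPC3, with 1 rise in complex II, and 4, 8, 7 and 14 in PANC1. The smallest adjusted p in these lists under the combination belonged to SDHA (−0.82, SE 0.04), CYC1 (−1.03, SE 0.05), COX7B (−1.41, SE 0.06) and ATP5G3 (−1.74, SE 0.05) in BXPC3. Of 19 assembly factors, which build complex I without remaining in it, 15 fell and none rose with the combination in BXPC3. In PANC1 9 fell and 6 rose with the combination. In BXPC3 SR4 alone lowered 11 and raised 1, and lonidamine alone lowered 9 and raised 3. With the combination NDUFAF5, which modifies NDUFS7, fell in BXPC3 (−1.69, SE 0.13), and FOXRED1 rose in PANC1 (1.08, SE 0.07). The lists were chosen with earlier results of these data known, and the counts describe them without a test of the list.

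Regulators of mitochondrial gene expression moved in both directions. Of 11 tested, 7 fell and 1 rose with SR4 in BXPC3, and 4 fell and 6 rose in PANC1. With lonidamine 4 fell and 1 rose in BXPC3, and 7 fell and 1 rose in PANC1. With the combination 8 fell and 2 rose in BXPC3, and 5 fell and 5 rose in PANC1. The shares of all genes are those given above for each treatment. TFAM, the transcription factor of the mitochondrial genome, fell with SR4 in BXPC3 (−0.79, SE 0.05) and in PANC1 (−0.42, SE 0.05). GABPB1, a subunit of the ETS factor GABP, rose with SR4 in PANC1 (1.04, SE 0.06, edgeR adjusted p = 4.38e-15), and in BXPC3 it fell by 0.32 on the log2 scale. The difference between the lines was 1.36 (SE 0.10, edgeR adjusted p = 4.77e-15). Their part in the members' changes was not tested. NDUFA4L2, a paralog of NDUFA4 that the symbol rule leaves out, rose in all 6 comparisons. It had 11 and 3 counts over the 3 vehicle libraries of BXPC3 and PANC1, and between 39 and 77 in the treated groups. With so few vehicle counts it passed the low-count filter only through treated libraries, so the filter itself favoured a rise.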

How the data were processed

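Gene counts of 24 libraries were used as the authors deposited them, in 1 table per line with gene lengths. Per the submitters' processing notes, the tools were STAR 2.7.8a, Partek and DESeq2 and the builds GRCh38 and hg38; the sources used here name no counter, annotation or strand setting. Every value column was matched to a sample or group; 1 BXPC3 SR4 column carries a number that no title has and was used as an unnumbered replicate. Counts were tested with edgeR 4.0.16 in R 4.3.3 (TMM scaling, filterByExpr with a minimum count of 10, quasi-likelihood F test), per line over 12 libraries and jointly over 24 for differences between lines, with Benjamini-Hochberg adjustment over all genes at 0.05. The standard error is the size of the log2 change divided by the square root of F. CPM values use library sizes scaled by TMM within each line, and differences between lines use the joint scaling. Alternatives were DESeq2 1.42.0, its size factors, no filter, only the groups compared, a replicate block, each library left out, and the total count as library size, which was added for the tests after the data were seen. On simulated data, with 100 genes changed at each size, the SR4 test in BXPC3 recovered 86% of log2 changes of 0.5. For changes of 1 the share was 98%. The PANC1 shares were 77% and 97%. The interaction was recovered less often, at 69% (BXPC3) and 72% (PANC1) for 0.5, then 95% and 90% for 1. Line differences in the SR4 response reached 66% and 93%. Far more genes were called in the real data (33.9% down, 33.4% up with SR4 in BXPC3), a setting not simulated. The changed genes were drawn only from genes above a floor of mean count, and the shares are not split by count. Recovery at low counts was therefore not simulated.

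The gene family and the lists were chosen with earlier results of these data known, and symbols alone then set the members of the family. Named members are the 7 core subunits, NDUFAB1, NDUFA4, the largest called changes in each comparison (3 rises and 3 falls against vehicle, 2 and 2 for interactions and line differences), members opposite in the lines, and the 3 highest and 3 lowest levels per kilobase; others are named in counts. NDUFB7 and NDUFV3 against SR4, and NDUFV2 and NDUFB10 between the compounds, were chosen after their values were seen. Promoters are from RefSeq and exon overlaps from GENCODE 29. The values of 1 member are not reported here by name; it is kept in the counts, medians and sums.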

Additional observations from a re-analysis of the deposited data

Results flagged for a closer look

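Differences between the lines in the same response were tested for each member (PANC1 change minus BXPC3 change on the log2 scale, edgeR, adjusted over all genes). With SR4 the difference was positive for 16 of 38 and negative for 5, against 26.2% and 24.9% of all genes. Among these members were NDUFV1 (0.55), NDUFA6 (0.53), NDUFB5 (0.51), NDUFC2 (−0.79) and NDUFB3 (−0.33). With lonidamine it was positive for 11 and negative for 1, against 23.5% and 18.2% of all genes. NDUFB6 (0.67) and NDUFA6 (0.67) led, with NDUFB10 (−0.46) in the other direction. With the combination it was positive for 19 and negative for 2, against 31.7% and 30.2% of all genes. NDUFA9 (0.87), NDUFA5 (0.70), NDUFS1 (0.63) and NDUFA6 (0.61) were positive, and NDUFC2 (−0.67) and NDUFB4 (−0.39) negative. NDUFA9 and NDUFC2 share most of their coding bases with exons of other genes, and the part of this in their differences was not tested.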

How the results depend on the processing

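The 344 results followed for named members had all passed the threshold in the main fit. Of their 7067 alternative values, 6772 kept direction and side of the threshold, 295 kept direction but no longer passed, and 0 reversed. Results that had not passed were not followed, and the alternatives share most of their libraries. Of 36 counts of members, 27 stayed within 1.5 times under every alternative. No scaling moved the median of all genes by over 0.1 on the log2 scale. The cause of the following moves was not tested. With the total count as library size, 3 members were higher with SR4 than lonidamine in BXPC3 (0 as reported) and 4 in PANC1 (8), 3 lay above the sum in BXPC3 (5), none rose with the combination in BXPC3 (1), and 6 were lower in PANC1 with vehicle (10). The summed levels were then 1568 CPM (SR4), 1617 (lonidamine) and 1227 (combination) in BXPC3 and 2226 with lonidamine in PANC1. DESeq2 gave 3 above the sum in BXPC3 and 0 rises with the combination there, as did leaving out the filter for the latter (0), and DESeq2 size factors gave 3 members lower in PANC1 for the lonidamine difference (1). Leaving out 1 library at a time gave 0 to 1 rises in BXPC3 for lonidamine, for the combination, for the combination against lonidamine and for SR4 against lonidamine, and 3 to 5 above the sum in BXPC3, with 3 without lonidamine replicate 2, the unnumbered SR4 library or combination replicate 1. It gave 3 to 5 members with a lower PANC1 response to SR4, with 3 without BXPC3 SR4 replicate 2, PANC1 vehicle replicate 3 or PANC1 SR4 replicate 3, and 1 to 2 for lonidamine, with 2 without either of BXPC3 lonidamine replicates 1 and 2, BXPC3 SR4 replicate 2 or either of PANC1 lonidamine replicates 1 and 2. The rise with the combination in BXPC3 (NDUFV3) was lost without either of vehicle replicates 1 and 2 or combination replicates 2 and 3, and that against lonidamine (NDUFA6) without either of lonidamine replicates 2 and 3 or combination replicate 1. A rise with lonidamine appeared without vehicle replicate 3 or either of lonidamine replicates 1 and 2, and one for SR4 against lonidamine without lonidamine replicate 1. The Pearson correlation between lines ran from 0.420 to 0.583 (SR4), 0.0489 to 0.384 (lonidamine) and 0.637 to 0.677 (combination). With a replicate block, 2 members lay above the sum in BXPC3. Same-numbered libraries did not deviate together (r −0.111 to 0.0945 in BXPC3 and −0.177 to 0.101 in PANC1). Whether the numbers mark a shared culture or batch is not stated, and such correlations cannot tell. NDUFA11 and NDUFC1 rest on at most 58 counts over the vehicle libraries of a line.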
